A study of Arabidopsis with 12 samples.

Results

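The comparison described here set *wlim2a-1* seedlings against wild-type (WT) seedlings after flg22, the side of the experiment that 6 of the 12 RNA-Seq samples cover. WT was *Arabidopsis thaliana* Col-0. *wlim2a-1* is 1 CRISPR-Cas9 line in this background, freed of Cas9, in which a single inserted base shifts the reading frame of *WLIM2A* and ends the protein early. Seedlings of both genotypes were 14 days old, had grown on ½ MS agar and spent the night before in ½ MS liquid medium, and were then given flg22 at 1 µM, or water as mock, for 1 h. Each of the 4 conditions had 3 biological replicates. The authors deposited 1 FPKM value (fragments per kilobase of transcript, scaled to the mapped fragments) per gene and condition, so the replicates were already combined and each value below is a pooled value without SD, test or p-value. No difference in this report could be compared with the spread between replicates.

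flg22 is a peptide of bacterial flagellin that the receptor kinase FLS2 binds together with BAK1. Binding sets off a burst of reactive oxygen species, calcium influx and MAPK cascades, and within an hour the transcription of many defense genes, a program known as pattern-triggered immunity. Later branches of this program run through salicylic acid (SA), jasmonic acid (JA), ethylene, indole glucosinolates and camalexin, the main phytoalexin of *Arabidopsis*. WLIM2A is a LIM domain protein, a family whose plant members bind and bundle actin filaments, and it was studied as a target of immune MAPKs. The comparison asks how transcript levels differed between the mutant and WT once flg22 had been perceived.

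Of the 27371 genes in the table, 18755 had an FPKM of at least 1 in WT flg22 or *wlim2a-1* flg22 and were compared. A gene under 1 FPKM in 1 condition was thus compared only through the other, so counts that include such genes depend in part on this rule. The measure was the log2 difference of FPKM + 1, *wlim2a-1* minus WT, which is smaller than the log2 ratio of the FPKM values for genes of low level. The 2 conditions were close for most genes: of the 18681 genes above 0 in both, 17933 (96.0%) differed less than 1.5-fold, and the median log2 difference was −0.02. At a 2-fold threshold, 293 genes (1.56%) differed, 225 (1.2%) with the higher value in *wlim2a-1* and 68 (0.363%) with the lower. These shares are the background to every count by list or family below. In 43 of the 225 and in 31 of the 68, the other condition was listed at exactly 0. The genes above 0 in both conditions were 182 higher (0.974%) and 37 lower (0.198%), and all folds below refer to such genes. Among these, 105 higher and 19 lower genes reached 10 FPKM, and 24 higher and 4 lower genes differed at least 4-fold.

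**Figure D1:**
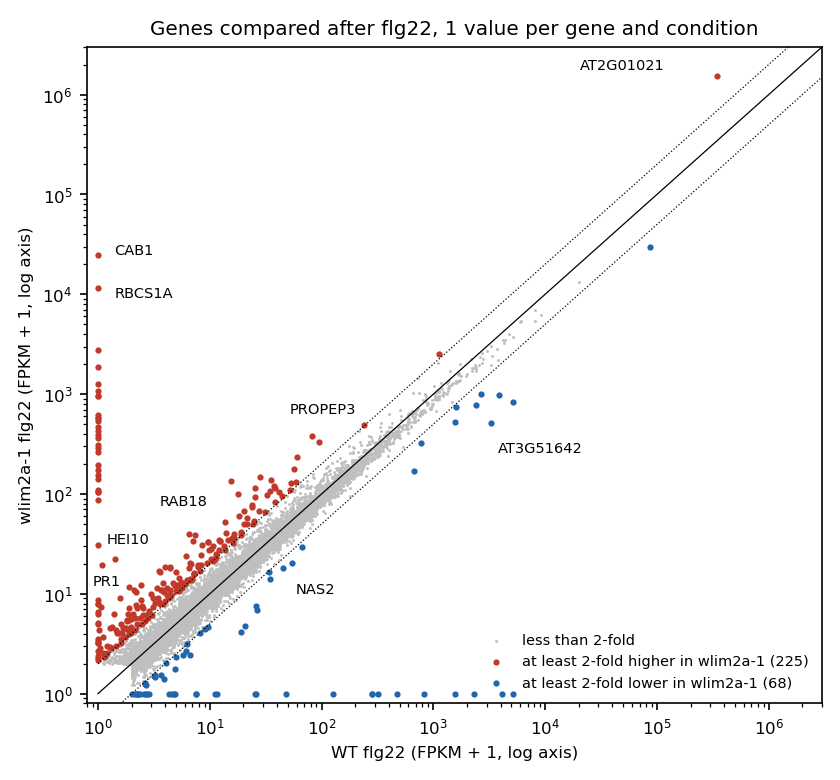
FPKM + 1 of each of the 18755 genes compared in WT flg22 (x) and *wlim2a-1* flg22 (y), both on log axes, with red points for the 225 genes at least 2-fold higher in *wlim2a-1*, blue points for the 68 at least 2-fold lower, a solid line at equality and dotted lines at 2-fold. Points on the left and lower edges are the genes listed at 0 in 1 condition, and most other points lie close to the line of equality.

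The spread of the differences between genes of like level gives a scale for what follows, although it is not the error of any gene. Of the 4888 genes with a mean of 10 to 30 FPKM, the central 95% had log2 differences between −0.43 and 0.59, with 46 genes higher and 6 lower. For the 6355 genes under 5 FPKM this range was −0.50 to 0.68. The number of reads behind each value is unknown. Just inside the threshold stood *MYB31*, at 4.36 FPKM in WT flg22 and 9.72 in *wlim2a-1* flg22, and just outside it *WRKY30*, at 17.0 and 35.0. On the lower side, *NAS1* at 32.6 and 15.6 FPKM was just inside and AT1G14960 at 16.1 and 7.60 just outside.

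The table as a whole had 4249 to 4602 genes listed at 0 per condition, among them genes that every green seedling uses, so an exact 0 is given only as a listing. A single locus of 102 bases, AT2G01021, held 28.9% of the summed FPKM in WT flg22 and 67.4% in *wlim2a-1* flg22. The upper quartiles of the genes compared were nevertheless near each other, at 21.9 and 21.7 FPKM. Dividing instead by the sum without this locus and the organelle genes moved the median of all genes by 0.15, from −0.02 to 0.13. List medians within about 0.2 of 0 are therefore given as levels and not as directions. The table gave WT mock and *wlim2a-1* mock in the same form, which share no sample with the 2 flg22 conditions, and their values stand beside those after flg22 for each main gene. The labels name no batch or sequencing date.

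*WLIM2A* itself had 11.6 FPKM in WT flg22, 6.20 in *wlim2a-1* flg22 and, in mock, 12.6 in WT and 10.9 in the mutant. It was lowest in *wlim2a-1* flg22, with a log2 difference of −0.81 after flg22 and −0.19 in mock, under the threshold in both. A frameshift leaves the transcript countable, so these values are no check of the labels. The other LIM genes lay nearer to equality. The widely expressed *WLIM1* had 48.4 FPKM in WT flg22 and 45.0 in *wlim2a-1* flg22, and *WLIM2B* had 68.8 and 62.4. *PLIM2A* and *PLIM2B*, members of the pollen class, had 3.02 and 1.76 FPKM and 11.6 and 9.49 FPKM. Of the 5 LIM genes compared, 0 differed 2-fold, and their median log2 difference was −0.27. Of 22 actins and actin-binding proteins, 0 differed 2-fold, with a median of −0.03. Beside the 1.56% of all genes compared that differed, a 0 in lists of this size says little.

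Of 33 early flg22 genes, 4 were at least 2-fold higher (*PROPEP3*, *MPK11*, *PROPEP2* and *FRK1*) and 0 were lower. Over all genes compared, 1.2% were higher and 0.363% lower. The count of 4 depends on the settings. *FRK1* was under 1 FPKM in WT flg22 and was compared only through *wlim2a-1* flg22. With a pseudocount of 5, *MPK11* (0.96), *PROPEP2* (0.96) and *FRK1* (0.45) fell under the threshold, and *PROPEP3* (1.78) stayed above it. The list's median of 0.11 stood beside −0.02 over all genes compared. *PROPEP3*, the precursor of a danger peptide that the receptors PEPR1 and PEPR2 perceive, had 93.7 FPKM in WT flg22, 333.2 in *wlim2a-1* flg22 and, in mock, 4.18 in WT and 4.64 in the mutant. Its FPKM was thus 3.56 times as high in the mutant after flg22 (log2 difference 1.82), while the mock values were close to each other (0.12). *PROPEP2*, a precursor of the same family, showed the same order at a lower level. It had 2.71 FPKM in WT flg22, 9.99 in *wlim2a-1* flg22 and, in mock, 0.48 in WT and 0.31 in the mutant, a log2 difference of 1.57 after flg22.

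*MPK11*, a MAPK of the MPK4 group that flg22 activates, had 2.64 FPKM in WT flg22 and 9.87 in *wlim2a-1* flg22, beside 0.08 and 1.14 in mock. *FRK1*, a receptor kinase gene used as a marker of flg22 signaling, had 0.94 and 3.13 FPKM after flg22 and 0.07 and 0.41 in mock. Both were higher in the mutant in each treatment, with log2 differences after flg22 of 1.58 and 1.09, at levels of a few FPKM. *PRXCA* (*PRX33*), a cell wall peroxidase of the apoplastic oxidative burst, had 9.76 FPKM in WT flg22 and 29.2 in *wlim2a-1* flg22 (1.49), and in mock the order was the opposite, 5.01 in WT and 2.99 in the mutant.

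The other early flg22 genes were under the threshold. *WRKY33*, a regulator of camalexin synthesis, had 171.0 FPKM in WT flg22 and 159.5 in *wlim2a-1* flg22. *MPK3* had 89.4 and 79.0 FPKM, *WRKY40* 52.5 and 56.3, and *ERF6* 194.8 and 196.2. After flg22 these 4 stood within 1.5-fold of WT. *YLS9* (*NHL10*), a membrane protein gene, came closest to the threshold, with 27.8 and 50.7 FPKM (0.84). The lowest member was AT5G51190 (*ERF105*), with 77.8 FPKM in WT flg22 and 44.8 in *wlim2a-1* flg22 (−0.78).

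Of 18 genes of the receptor complex and oxidative burst, *PRXCA* was the 1 that differed 2-fold. *FLS2* had 13.9 FPKM in WT flg22 and 21.3 in *wlim2a-1* flg22 (0.58), beside 10.9 and 31.3 in mock. *CERK1*, the co-receptor for chitin, had the same log2 difference, with 12 and 18.3 FPKM. *BAK1* stood at 33.0 and 35.1 FPKM, and *RBOHD*, the NADPH oxidase of the burst, at 37.0 and 45.5. *PER4*, another peroxidase, had 63.2 and 115.9 FPKM (0.87), and *PRXCB*, the close copy of *PRXCA*, 157.2 and 181.5.

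**Figure D2:**
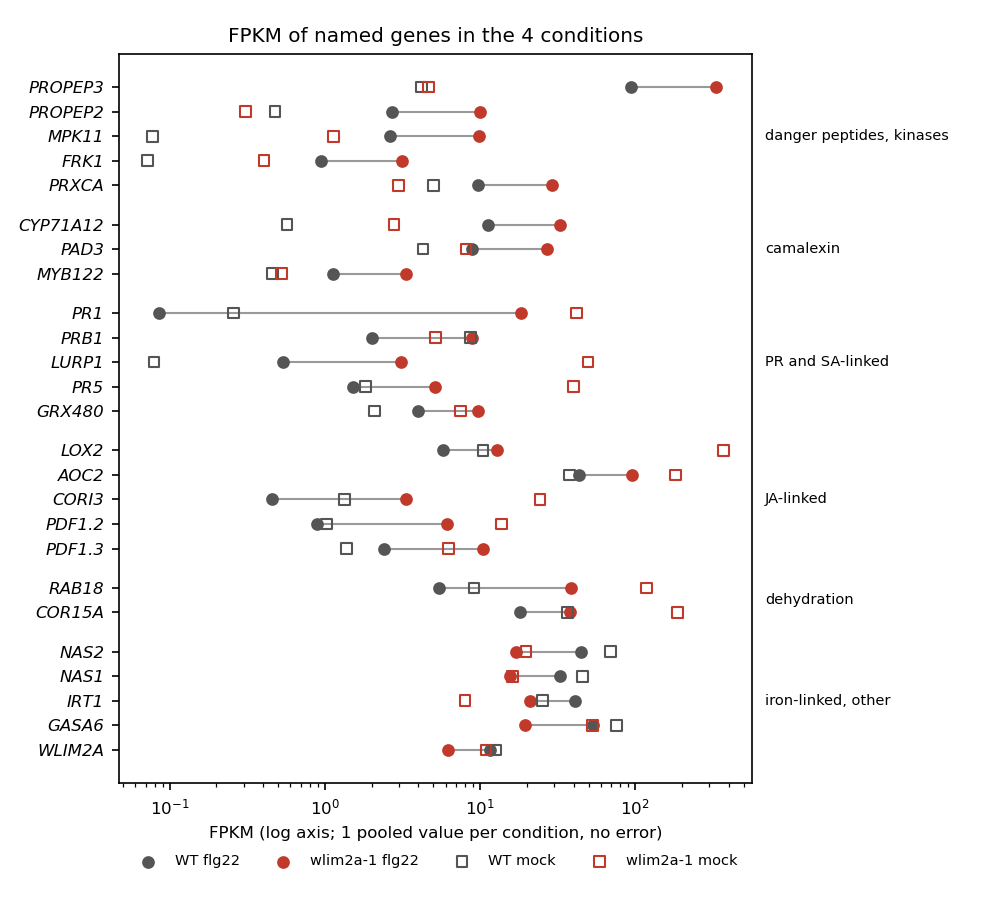
FPKM (log axis) of 25 genes named in the text in WT flg22 (filled gray circles), *wlim2a-1* flg22 (filled red circles), WT mock (open gray squares) and *wlim2a-1* mock (open red squares), 1 pooled value each, with a gray line joining the 2 flg22 values. *PROPEP3* has its highest value in *wlim2a-1* flg22 with mock values close together, whereas *PR1*, *LURP1*, *PR5* and *LOX2* have theirs in *wlim2a-1* mock.

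Of 29 indole glucosinolate and camalexin genes, 4 were at least 2-fold higher (*PAD3*, *CYP71A12*, *CYP82C2* and *MYB122*) and 0 were lower, and 25 had a log2 difference above 0, with a median of 0.40. CYP71A12 and CYP71A13 convert indole-3-acetaldoxime, the shared precursor made by CYP79B2 and CYP79B3, and PAD3 completes camalexin. *CYP71A12* had 11.2 FPKM in WT flg22, 33.0 in *wlim2a-1* flg22 and, in mock, 0.57 in WT and 2.79 in the mutant. *PAD3* had 8.81, 26.8, 4.30 and 8.11 FPKM in the same order. In both genes *wlim2a-1* flg22 held the highest of the 4 values, about 3 times WT flg22 (log2 differences 1.47 and 1.5). *CYP71A13* stayed just under the threshold (1.00 when rounded) at 0.19 and 1.37 FPKM, a low level for a gene whose close copy *CYP71A12* can share reads with it.

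*MYB122*, a regulator of indole glucosinolate synthesis, had 1.13 FPKM in WT flg22 and 3.32 in *wlim2a-1* flg22, and its mock values were 0.46 and 0.53. *CYP82C2*, which hydroxylates indole carbonyl nitriles, had 0.29 and 1.92 FPKM after flg22 and 0.18 in each mock condition. The neighboring P450 gene *CYP82C3* had 11.1 FPKM in WT flg22 and 33.4 in *wlim2a-1* flg22, and at most 0.02 in mock. The separate values of these 2 similar genes are uncertain. *GSTF6*, a glutathione transferase linked to camalexin synthesis, was under the threshold at 659.6 and 1029 FPKM (0.64).

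Genes that supply tryptophan stayed under the threshold, with *ASB1* at 20.1 and 39.0 FPKM (0.93), *TSA1* at 23.7 and 40.5 (0.75) and *ASA1* at 43.6 and 62.3 (0.51). *CYP79B2* had 49.8 FPKM in WT flg22 and 78.4 in *wlim2a-1* flg22, and *CYP83B1*, the entry to indole glucosinolates, 342.6 and 514.1. The steps that modify indole glucosinolates differed less. *MYB51*, their main regulator after flg22, had 136.3 and 152.4 FPKM, *CYP81F2* 160.9 and 194.1, and *PEN2*, the myrosinase of the pathway, 148.7 and 174.0. Of 12 aliphatic glucosinolate genes 0 differed 2-fold, with a median of 0.16.

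The largest log2 difference of all genes above 0 in both conditions belonged to *PR1*, the pathogenesis-related gene most used as a readout of SA. It had 0.09 FPKM in WT flg22, 18.24 in *wlim2a-1* flg22 and, in mock, 0.26 in WT and 41.8 in the mutant. The 2 mutant values were far above the 2 WT values in either treatment, with log2 differences of 4.15 after flg22 and 5.09 in mock. *PR1* formed a run of 3 neighboring genes with *PRB1* and *LURP1* on chromosome 2 (6213617 to 6242541, RefSeq positions in TAIR10.1), in which every gene compared was at least 2-fold higher.

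*LURP1*, needed for basal defense against the oomycete *Hyaloperonospora*, had 0.54 FPKM in WT flg22, 3.07 in *wlim2a-1* flg22 and, in mock, 0.08 in WT and 49.7 in the mutant. *PRB1*, a basic relative of PR1, had 2.00, 8.93, 8.65 and 5.17 FPKM in the same order. Within the run the mock values thus differed in order, with *LURP1* higher in the mutant (5.55) and *PRB1* lower (−0.65). *PR5*, a thaumatin-like protein, had 1.52 FPKM in WT flg22 and 5.09 in *wlim2a-1* flg22, beside 1.83 and 39.9 in mock. *GRX480* (*ROXY19*), a glutaredoxin that binds TGA factors, had 4.0 and 9.71 FPKM after flg22 and 2.08 and 7.47 in mock. *PR2*, listed as *BGL2* and encoding a glucanase, had 0.48 and 1.65 FPKM after flg22, under the threshold at 0.84.

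Of 8 PR and systemic acquired resistance genes compared, 4 were at least 2-fold higher and 0 lower, with a median of 0.97, the highest of the 21 lists with a member compared. The size of this median depends on the low members, and it was 0.43 with a pseudocount of 5, 0.59 without an FPKM minimum and 1.43 with a pseudocount of 0.1. The count depends on them as well. *PR1*, *LURP1* and *PR2* were compared only through *wlim2a-1* flg22, and 4 of the 12 members in the table were left out as under 1 FPKM in both. With a pseudocount of 5, *LURP1* (0.54), *PR5* (0.63) and *GRX480* (0.71) fell under the threshold, and *PR1* stayed above it. In mock the 8 PR and systemic acquired resistance genes had a median of 2.82, and 6 were at least 2-fold higher in the mutant. The genes that make and sense SA lay far closer together after flg22. Of 16, 0 differed 2-fold after flg22 and 15 had a log2 difference above 0, with a median of 0.24 after flg22 and 0.56 in mock. *EDS1* had 26.1 FPKM in WT flg22 and 31.0 in *wlim2a-1* flg22, *NPR1*, an SA receptor, 24.4 and 28.8, and *CBP60G*, an activator of SA synthesis genes, 15.6 and 21.1. *EDS5*, the exporter of the SA precursor from the plastid, had 3.03 and 4.95 FPKM, and *ICS1*, the first enzyme of the pathway, was under 1 FPKM in both, at 0.77 and 0.97. *NIMIN1*, a partner of NPR1, came nearest to the threshold at 0.13 and 1.16 FPKM (0.93).

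Genes of JA synthesis were higher in part. *AOC2*, an allene oxide cyclase, had 43.5 FPKM in WT flg22, 94.9 in *wlim2a-1* flg22 and, in mock, 37.7 in WT and 181.1 in the mutant. *LOX2*, the main lipoxygenase of the pathway in leaves, had 5.79, 12.9, 10.4 and 370.9 FPKM in the same order. For both genes *wlim2a-1* mock was the highest condition, and the difference between the genotypes was smaller after flg22 (1.11 and 1.04) than in mock (2.23 and 5.02), a contrast that was not tested. The other members under the threshold included *LOX3* at 2.97 and 6.39 FPKM (0.90), *AOC1* at 46.1 and 82.4 (0.82) and *AOS* at 36.9 and 51.3 (0.46). Of 15 JA synthesis genes, 2 were at least 2-fold higher and 0 lower after flg22, with a median of 0.43. In mock, 8 of the same genes were at least 2-fold higher and 0 lower, with a median of 1.25. The *AOC* genes are similar copies and can share reads.

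Among 24 JA response genes, 5 were at least 2-fold higher and 0 lower after flg22, with a median of 0.32 after flg22 and 0.61 in mock. The 5 included 4 plant defensins, small antifungal peptides. *PDF1.2* had 0.89 FPKM in WT flg22, 6.14 in *wlim2a-1* flg22 and, in mock, 1.02 in WT and 13.7 in the mutant. *PDF1.3* had 2.40, 10.5, 1.38 and 6.27 FPKM in the same order. *LCR67* (*PDF1.1*) had 0.89 and 4.42 FPKM after flg22 and was listed at 0 in both mock conditions, and *PDF1.2C* had 0.21 and 1.53 after flg22. Each of the 4 was higher in *wlim2a-1* flg22 than in WT flg22, but *PDF1.2B*, a near-identical copy, was not, at 1.9 and 1.89 FPKM. Reads of such copies cannot be assigned with certainty. *PDF1.2*, *LCR67* and *PDF1.2C* were under 1 FPKM in WT flg22 and were compared only through their value in *wlim2a-1* flg22. With a pseudocount of 5 their log2 differences were 0.92, 0.68 and 0.33, so the count of 5 depends on the settings.

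The remaining member was *CORI3*, a coronatine-inducible cystine lyase, with 0.46 FPKM in WT flg22 and 3.33 in *wlim2a-1* flg22, beside 1.33 and 24.3 in mock. It too was compared only through *wlim2a-1* flg22, and its log2 difference was 0.61 with a pseudocount of 5. *ORA59*, an activator of the defensin genes, had 19.0 and 29.2 FPKM after flg22 (0.59), and *VSP2*, a marker of the wound branch of JA, 27.6 and 35.0. *JAZ1*, a repressor that JA induces, had 123.9 and 205.2 FPKM (0.72), and *MYC2*, the main activator, 61.3 and 66.5. Of 15 ethylene genes 0 differed 2-fold, with a median of 0.13.

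**Figure D3:**
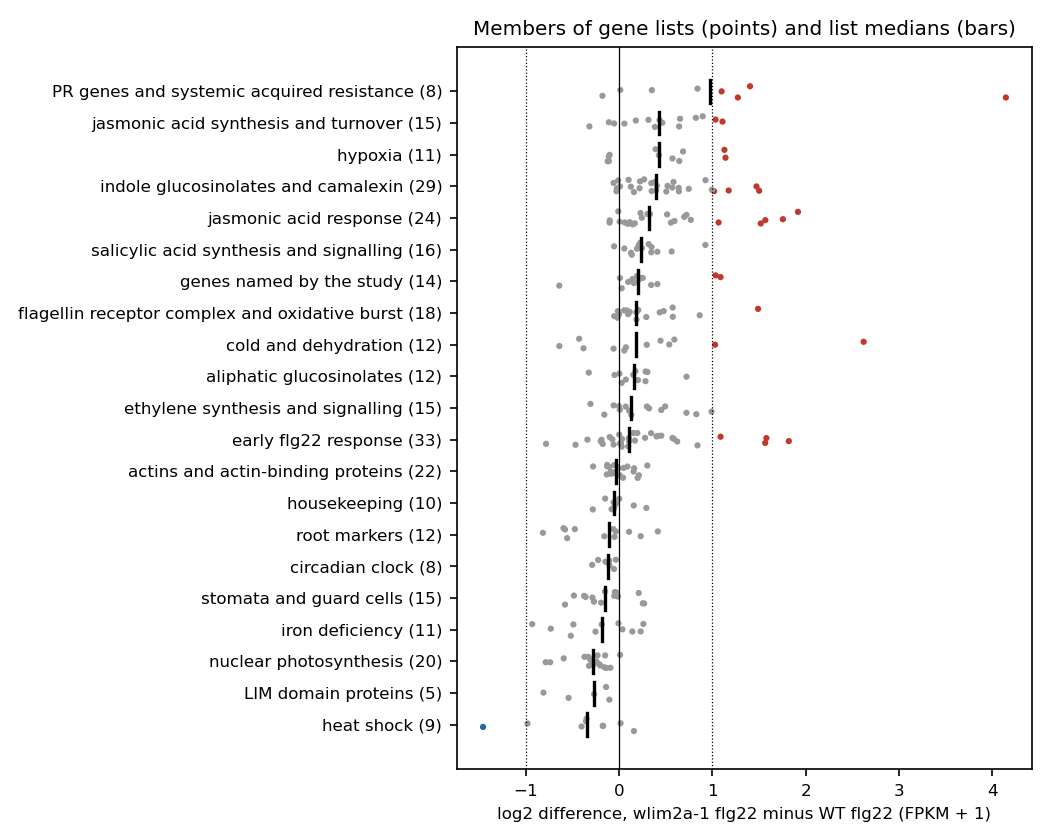
Log2 difference of FPKM + 1 (*wlim2a-1* flg22 minus WT flg22) for each list member above 0 in both conditions, 1 point per gene, with red points at 1 or above, blue points at −1 or below, black bars at the list medians and the number of genes plotted in parentheses. The PR gene list has the highest median, 0.97, and the heat shock list the lowest, −0.35.

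Dehydration genes lay on both sides of 0. *RAB18*, a dehydrin responsive to abscisic acid, had 5.46 FPKM in WT flg22, 38.8 in *wlim2a-1* flg22 and, in mock, 9.14 in WT and 117.7 in the mutant, a log2 difference of 2.62 after flg22. *COR15A*, a chloroplast protein of cold acclimation, had 18.16, 38.1, 36.6 and 186.9 FPKM in the same order (1.03). *ERD10*, another dehydrin, had 177.2 FPKM in WT flg22 and 113.3 in *wlim2a-1* flg22 (−0.64), although its mock values were 137.1 and 2664. Of 12 cold and dehydration genes compared after flg22, 2 were at least 2-fold higher and 0 lower, with a median of 0.19 after flg22 and 1.53 in mock for the same genes.

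Of 11 hypoxia genes, 2 were at least 2-fold higher and 0 lower, with a median of 0.43 that moved to 0.16 with a pseudocount of 5 and to 0.70 with 0.1. *HB1*, a nonsymbiotic hemoglobin, had 5.29 FPKM in WT flg22 and 12.9 in *wlim2a-1* flg22, beside 3.42 and 8.47 in mock. AT3G10040 (*HRA1*), an attenuator of the hypoxia response, had 6.25 and 14.9 FPKM after flg22 and 6.83 and 9.73 in mock. *ADH1*, the alcohol dehydrogenase of fermentation, was under the threshold at 5.12 and 8.58 FPKM. Of 9 heat shock genes compared, 0 were at least 2-fold higher and 1 was lower after flg22. Their median was −0.35 after flg22 and 0.41 in mock. The flg22 median was −0.22 with a pseudocount of 5 and −0.17 without an FPKM minimum. The 1 lower gene was *HSP17.6A*, a small heat shock protein, at 3.91 and 0.79 FPKM, and its log2 difference was −0.62 with a pseudocount of 5. *HSP17.4* stood just under the threshold at 4.46 and 1.77 (−0.98).

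Besides *PR1*, the 15 largest differences upward among genes of at least 10 FPKM were led by *HEI10*, a ubiquitin ligase of meiotic crossover formation. It had 0.42 FPKM in WT flg22, 21.3 in *wlim2a-1* flg22 and, in mock, 0.31 in WT and 17.0 in the mutant, so that both mutant values were high and both WT values under 1 (log2 differences 3.98 and 3.77). *MRD1*, noticed after the values were seen, had 0.01, 3.31, 0 and 3.21 FPKM, but its locus overlaps that of *HEI10* (19963047 to 19964712 and 19963267 to 19966952 on chromosome 1, RefSeq positions in TAIR10.1), so the 2 can share reads and are not separate observations. AT3G13857, a locus of 239 bases, had 14.5 FPKM in WT flg22 and 133.1 in *wlim2a-1* flg22, beside 40.3 and 108.6 in mock. AT1G47395 had 0.88 and 10.7 FPKM after flg22 and 1.55 and 18.7 in mock, and its neighbor AT1G47400, also seen afterwards, 0.62 and 3.96 after flg22 and 0.43 and 10.4 in mock.

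A further set of the 15 was low in both mock conditions. AT5G25260 had 6.34 FPKM in WT flg22 and 37.8 in *wlim2a-1* flg22, and 0.53 and 2.04 in mock. AT1G51920 had 1.45 and 11.2 FPKM after flg22, AT1G06135 2.53 and 15.8, and both were listed at 0 in the 2 mock conditions. AT2G31345 had 2.61 and 15.5 FPKM after flg22 and at most 0.11 in mock. In these 4 genes the mutant value after flg22 was the highest of the 4 conditions. AT2G39518 had 2.97 and 17.57 FPKM after flg22 and nearly equal mock values, 1.91 and 1.98.

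The remaining members of the 15 were AT3G08520, AT3G06895, AT4G22485, AT2G01021 and the chloroplast locus ATCG00580. The first 4 of these were higher in *wlim2a-1* after flg22 and had the lower value in it in mock. AT3G06895, of 163 bases, had 80.7 FPKM in WT flg22, 382.6 in *wlim2a-1* flg22 and, in mock, 345.2 in WT and 17.3 in the mutant. AT3G08520 had 27.0, 148.5, 178.2 and 59.1 FPKM in the same order.

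AT4G22485 belonged to a run of 7 neighboring genes on chromosome 4, AT4G22470 to AT4G22520 (11840134 to 11858970, RefSeq positions in TAIR10.1), in which 7 of 7 genes compared were at least 2-fold higher after flg22, by log2 differences of 1.44 to 2.25. The highest of them, AT4G22490, had 37.2 FPKM in WT flg22, 114.9 in *wlim2a-1* flg22 and, in mock, 98.2 in WT and 38.1 in the mutant. AT4G22517 had 24.5, 91.7, 88.4 and 34.9 FPKM in the same order. In these 2 genes, as in 4 others of the run, WT flg22 was the lowest of the 4 values or, in AT4G22520, the second lowest, and the mock difference was negative, between −0.97 and −1.54. The exception was AT4G22470, higher in the mutant in mock as well, at 3.44 and 19.1 FPKM. These loci are neighbors and may include similar copies, so they are not separate observations.

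The genes that follow were picked after their values were seen, from the 182 that were higher. Detoxification genes were among them. *GSTU11*, a tau glutathione transferase, had 19.3 FPKM in WT flg22, 67.3 in *wlim2a-1* flg22 and, in mock, 1.18 in WT and 1.08 in the mutant. *GSTU4*, of the same class, had 12.7 and 51.0 FPKM after flg22 and 2.83 and 7.89 in mock. *NIT4*, a nitrilase of cyanide detoxification, had 3.87 and 11.3 FPKM after flg22 and 2.48 and 2.58 in mock. The class as a whole did not share the difference, since 2 of 25 *GSTU* genes compared were at least 2-fold higher, 0 were lower and the median was −0.05.

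Receptor-like kinases were represented by *WAK1*, a pectin-binding wall-associated kinase, with 4.29 FPKM in WT flg22, 13.5 in *wlim2a-1* flg22 and, in mock, 1.39 in WT and 50.5 in the mutant. *WAKL4*, of the same family, had 3.35 and 8.28 FPKM after flg22 and 0.73 and 0.33 in mock. *CRK13* and *CRK20*, kinases with cysteine-rich extracellular domains, had 7.28 and 18.4 FPKM and 3.12 and 8.69 FPKM after flg22. *IOS1*, a kinase that associates with FLS2 complexes, had 15.2 and 31.5. In their families, 2 of 9 wall-associated kinase genes and 2 of 27 *CRK* genes were at least 2-fold higher and 0 were lower, with medians of 0.56 and 0.23. Of 47 *WRKY* genes, 0 differed 2-fold after flg22, with a median of 0.05, beside 1.56% of all genes compared. In mock, 7 of the 47 *WRKY*, 10 of the 27 *CRK* and 4 of the 9 wall-associated kinase genes were at least 2-fold higher in the mutant. In each of these families 0 were lower in mock. Over all genes compared, 4.15% were higher and 0.517% lower in mock.

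*NAC019*, a transcription factor of abscisic acid and JA responses, had 1.05 FPKM in WT flg22 and 5.32 in *wlim2a-1* flg22, beside 0.58 and 2.90 in mock. *ABCG40*, an abscisic acid importer, had 3.18 and 10.4 FPKM after flg22 and 1.35 and 1.81 in mock. *PCC1*, a gene under pathogen and circadian control, had 0.12 and 2.67 FPKM after flg22, but 0.14 and 59.1 in mock. These genes differ in where the mutant's highest value lies, after flg22 for *NAC019* and *ABCG40* and in mock for *PCC1*.

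The genes lower in *wlim2a-1* were fewer, and many were short. Of the 35 with a length in RefSeq, 12 (34.3%) were under 500 bases, as were 20 of the 161 higher genes with a length (12.4%) and 1.02% of all genes compared. FPKM values of short genes can rest on few fragments, and the number was not given. The 2 largest differences, in AT3G51642 (3256 FPKM in WT flg22 and 519.3 in *wlim2a-1* flg22) and AT5G66607 (5200 and 832.3), were in loci of 541 and 326 bases that were each listed at 0 in 1 mock condition. AT4G30097, AT2G11271, AT2G01023, AT5G66053, AT5G14560, AT2G35850 and AT4G26290, also among the 15 largest, were at most 243 bases long.

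Longer genes among the 15 were fewer. AT4G38410 had 18.1 FPKM in WT flg22, 3.16 in *wlim2a-1* flg22 and, in mock, 5.80 in WT and 3.78 in the mutant, so WT flg22 stood above the other 3 (−2.20). *GASA6*, a gibberellin-regulated peptide gene, had 53.7, 19.4, 75.4 and 52.9 FPKM in the same order (−1.43). AT4G07408 had 25.5, 5.96, 3.19 and 5.47 FPKM (−1.93).

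*NAS2*, a nicotianamine synthase that makes a chelator of iron and other metals, had 44.6 FPKM in WT flg22, 17.0 in *wlim2a-1* flg22 and, in mock, 69.1 in WT and 19.8 in the mutant. Both mutant values were under both WT values, with log2 differences of −1.34 after flg22 and −1.75 in mock. *NAS1*, picked afterwards as a close relative that can share reads with it, had 32.6, 15.6, 45.8 and 16.1 FPKM in the same order (−1.02 and −1.45). *IRT1*, the iron transporter of the root surface, had 40.9, 21.0, 25.2 and 8.0 FPKM, and *FRO2*, its ferric reductase partner, 8.64, 4.81, 4.96 and 1.63. These 4 genes had a lower FPKM in the mutant in each treatment, but *IRT1* (−0.93) and *FRO2* (−0.73) were under the threshold after flg22. *NAS1* and *NAS2* were not on the iron deficiency list. Of its 16 entries only 11 were paired with a locus, so it covers the response in part. Of these 11 genes 0 differed 2-fold, 4 had a log2 difference above 0 and 7 below. The list's median was −0.19, and its summed level was 231.2 FPKM in WT flg22 and 231.2 in *wlim2a-1* flg22. *FER1*, the ferritin gene that iron excess induces, had 144.4 and 169.7 FPKM after flg22.

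Root and shoot marker genes were checked because seedlings are whole plants, and a lower value can mean fewer cells of a type or less RNA per cell, which bulk samples cannot tell apart. Of 12 root markers 0 differed 2-fold after flg22, with a median of −0.11 after flg22 and −0.43 in mock, and their summed level was 437.1 FPKM in WT flg22 and 441.2 in *wlim2a-1* flg22. The log2 difference was above 0 for 3 of them and below 0 for 9. It ran from −0.82 for the root hair gene *PRP1*, at 2.19 and 0.81 FPKM, to 0.42 for *BGLU22*, at 12.1 and 16.5, and the endodermis gene *CASP1* stood at 46.0 and 44.9. Of 15 stomata and guard cell markers 0 differed 2-fold, with a median of −0.15 and sums of 465.5 and 466.4 FPKM. Seed storage genes were under 1 FPKM in all 9 cases. The part of organ composition in the differences described above was not tested.

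Nuclear photosynthesis genes had a median of −0.26 over 22 genes, of which 0 were lower 2-fold and 2 were counted as higher because WT was listed at 0. These were *CAB1*, at 0 in WT flg22 and WT mock and 24963 and 29857 FPKM in *wlim2a-1* flg22 and mock, and *RBCS1A*, at 0 in both WT conditions and 11504 and 14401 in the mutant. Their copies were above 0 everywhere. *CAB2* had 6073 FPKM in WT flg22 and 5448 in *wlim2a-1* flg22, *CAB3* 6006 and 5224, *RBCS2B* 3818 and 2213, and *RBCS3B* 8062 and 5344. No fold is given for *CAB1* or *RBCS1A*, since a listing at 0 for such genes in green seedlings can be a failed estimate.

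The other genes listed at 0 in 1 flg22 condition included many very short loci. The highest values opposite a 0 in WT flg22, after *CAB1* and *RBCS1A*, were 2801 FPKM for AT1G23650 (87 bases), 1861 for AT2G28426 (132 bases) and 1269 for the chloroplast locus ATCG00570. Opposite a 0 in *wlim2a-1* flg22, they were 5163 FPKM for AT5G53144, 4102 for AT1G74929 (102 bases), 2322 for ATCG00220, 1578 for AT5G10336 and 829.4 for AT2G46995. Of the 27 lower ones with a length, 23 (85.2%) were under 500 bases. Of the 43 higher ones only 31 (72.1%) have a length, 22 of them under 500 bases, too few for the check to hold for the set.

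Loci of the chloroplast genome formed a block of their own. Of 65 chloroplast loci above 0 in both conditions, 17 were at least 2-fold higher and 2 lower. Over all genes above 0 in both conditions the shares were 0.974% and 0.198%. The chloroplast loci had a median log2 difference of 0.46 after flg22 and 2.23 in mock. Among the higher ones, ATCG00580 had 17.1 FPKM in WT flg22, 99.1 in *wlim2a-1* flg22 and, in mock, 33.7 in WT and 104.5 in the mutant, and ATCG00490 had 55.2, 178.6, 117.9 and 556.8. The 3 runs of higher genes in the chloroplast spanned ATCG00020 to ATCG00140 (5 of 6 genes compared), ATCG00210 to ATCG00350 (7 of 8) and ATCG00660 to ATCG00760 (6 of 11), of which 1, 2 and 2 genes were counted as higher because WT flg22 was listed at 0. The 2 lower loci were ATCG00630, at 3859 and 984.3 FPKM, and ATCG00640, at 25 and 6.55. Of 39 mitochondrial loci, 4 were higher and 0 lower, with a median of 0.13. How organelle transcripts entered the libraries was not tested.

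The genes that differed after flg22 can be set beside the same genes in mock, where 4.15% of all genes compared had at least a 2-fold higher and 0.517% at least a 2-fold lower value in the mutant (4.11% and 0.434% of those above 0 in both flg22 conditions). Of the 182 higher genes, 66 (36.3%) were at least 2-fold higher in mock too, 11 (6.04%) were lower, and 105 differed less than 2-fold. Their median log2 difference was 1.34 after flg22 and 0.42 in mock. A group of 40 among them was under 1 FPKM in both mock conditions, so for these a 2-fold difference in mock could not be seen on this scale. Of the 37 lower genes, 10 (27.0%) were lower in mock as well and 6 (16.2%) were higher, with medians of −1.26 after flg22 and −0.41 in mock. *PR1*, *HEI10* and *RAB18* are examples higher in the mutant in both treatments, *PROPEP3* and *GSTU11* examples with mock values near each other, and AT3G06895 an example with opposite differences.

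**Figure D4:**
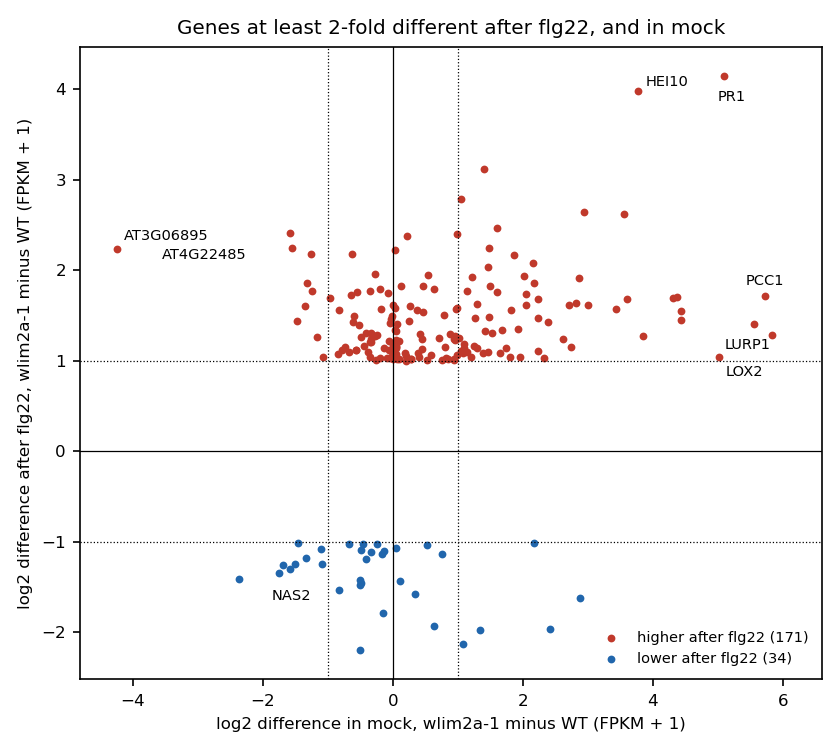
Log2 difference of FPKM + 1 (*wlim2a-1* minus WT) in mock (x) and after flg22 (y) for the 205 genes that differed at least 2-fold after flg22 and were above 0 in all 4 conditions, with dotted lines at 2-fold. The 171 higher genes (red) extend from a mock difference of −4.24 to 5.83, and the 34 lower genes (blue) lie on both sides of 0 in mock.

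The genes that the study names were chosen in part on these samples, and those are no independent evidence of a direction. Others, such as *FRK1* and *WRKY29*, were measured by qRT-PCR as known markers of pattern-triggered immunity. By qRT-PCR the study also reported *BIK1*, *LOX2*, *WRKY40* and a further kinase gene as higher in the mutant after flg22. It reported *ERD10* and *PIN7* as repressed. The further kinase gene is *AGC2-1*. After flg22 the FPKM values of *BIK1* (log2 difference 0.03), *PIN7* (0.14), *WRKY40* (0.10) and *AGC2-1* (0.25) were close in both genotypes. *LOX2* (1.04) was higher in the mutant and *ERD10* (−0.64) lower, the same directions as by qRT-PCR. Of 14, *LOX2* and *FRK1* were at least 2-fold higher after flg22 and 0 were lower, with a median of 0.20. *BIK1*, a kinase of the FLS2 complex, had 48.7 FPKM in WT flg22 and 49.6 in *wlim2a-1* flg22. *WRKY29* had 31.7 and 40.5 FPKM, *WRKY27* 15 and 17.5, *NPR3*, an SA receptor, 15.4 and 17.7, *AGC2-1*, a kinase, 14.6 and 17.56, and *PIN7*, an auxin exporter, 9.64 and 10.8. *ERD10* was the 1 with a lower FPKM in the mutant.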

How the data were processed

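RNA was sequenced from 12 samples, 3 biological replicates in each of 4 conditions. Per the labels, 30 M reads per sample were guaranteed. The number obtained was not stated, so the depth behind a value is unknown. The authors checked reads with FastQC 0.11.5, aligned them to TAIR10 with TopHat2 2.1.1 and used Cufflinks, Cuffdiff 2.2.1 with quartile normalization and limma. Which of these programs wrote the values is not stated. The deposited FPKM table holds 1 value per gene and condition, with replicates combined by the authors, so no replicate was left out and no test was run. The study's text names a stranded mRNA kit, the labels a provider's own protocol.

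From the deposited values, log2((*wlim2a-1* flg22 + 1)/(WT flg22 + 1)) was computed with a pseudocount of 1 over genes with at least 1 FPKM in either flg22 condition, without rescaling (Python 3.11.15, pandas 2.3.3). Genes listed at 0 in 1 condition were counted apart and given no fold. The calculation was tested on simulated data.

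Genes were named by rule: the 15 largest log2 differences in each direction among genes above 0 in both conditions with at least 10 FPKM in the higher, the 5 highest genes listed at 0 in 1 condition in each direction, *WLIM2A*, list members at least 2-fold different, genes the study names, and runs of at least 3 genes with at most 2 other compared genes between them. Other genes, including list members under 2-fold and the gene families, were picked after their values were seen. The 22 lists (380 entries, 15 of which RefSeq did not pair with a locus and were left out) were written from general knowledge. The genes compared and the lists were chosen with earlier results of these data known. Symbols, positions and lengths are from RefSeq (TAIR10.1), where 26703 loci (97.6%) were found; organelle loci were not matched. Alternatives were other pseudocounts, FPKM minimums, fold thresholds and scalings.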

Additional observations from a re-analysis of the deposited data

How the results depend on the processing

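No paired analysis was possible because the values analyzed are 1 per condition, which also means that no replicate could be left out. The counts of 225 higher and 68 lower genes changed most with the fold threshold, to 560 and 262 at 1.5-fold and 59 and 25 at 4-fold, and with the pseudocount, to 346 and 129 at 0.1 and 102 and 35 at 5. A minimum of 5 FPKM gave 42 lower genes, and leaving out genes listed at 0 gave 37. Without an FPKM minimum, with 2 other scalings (upper quartile, ratio to *ACT2* and *UBQ10*) and, in an alternative chosen after seeing the data, without organelle loci, both counts stayed within 1.5 times. Scaling to the sum without AT2G01021 and organelle loci also kept both counts in that range, but moved the median of all genes to 0.13 and turned the medians of the circadian clock list (0.051), the stomata list (0.013) and the root markers (0.038) to the other side of 0, as it did for the actin list (0.13) and the housekeeping genes (0.12). Of the 21 list medians, 5 moved beyond the tolerance of 0.1 with a pseudocount of 5, 2 with 0.1, 3 with a minimum of 5 FPKM and 3 without a minimum. The sum scaling moved far more, 18 of 22 values (these medians and that of all genes). The clock, stomata and root lists were counted apart as the 3 reversed, and 1 value, the hypoxia median, stayed within the tolerance. Of 66 single genes named, 17 fell under 2-fold with a pseudocount of 5, all with low FPKM in WT flg22 or a difference near the threshold. They were *MPK11*, *FRK1*, *PROPEP2*, *MYB122*, *CYP82C2*, *PR5*, *LURP1*, *GRX480*, *LOX2*, *PDF1.2*, *PDF1.2C*, *LCR67*, *CORI3*, *COR15A*, *HB1*, AT3G10040 and *HSP17.6A*. *WLIM2A* and the genes the study names, other than *LOX2* and *FRK1*, were under 2-fold from the start and could not fall. The share that fell is therefore larger among the rest. None of these 66 changed direction in the alternatives run; the genes picked after their values were seen were not part of this check, and one with a difference near 0 could change sign under the sum scaling. Unknown depth and the lack of replicate values limit every difference given.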

Other observations

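Of the 182 genes with the higher value in *wlim2a-1* flg22, 11 were at least 2-fold lower in it in mock, and 6 of the 37 lower genes were at least 2-fold higher in mock. Besides the loci of the chromosome 4 run, those higher after flg22 included AT3G05727, with 24.7 FPKM in WT flg22, 114.9 in *wlim2a-1* flg22 and, in mock, 89.8 in WT and 36.8 in the mutant. *CYP78A5*, a cytochrome P450 of organ growth, was another, with 1.37, 4.69, 5.72 and 1.99 FPKM in the same order. In each of these 2 genes WT flg22 and *wlim2a-1* mock were the low conditions. *LTP6*, a lipid transfer protein gene, had a like order at 30.4, 64.9, 58.4 and 32.2 FPKM, with a mock difference of −0.84 that was under the threshold. These genes were picked after their values were seen, and without replicate values their pattern was not tested.

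Wall and growth genes were described less above. Of 24 xyloglucan endotransglucosylase genes compared after flg22, *XTH12* was the 1 that differed 2-fold, at 3.10 FPKM in WT flg22 and 1.01 in *wlim2a-1* flg22, and of 17 expansin genes 0 did, with medians of −0.10 and −0.20. Of 60 *MYB* genes, *MYB122* and *MYB31* were higher and 0 lower, and of 44 *NAC* genes *NAC019* was higher and 0 lower.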
